A study of Mus musculus with 22 samples.

Results

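The genes described here are 9 hormone-responsive transcripts of mouse kidney, listed for a known response to androgens or a male bias: Slco1a1, Cyp7b1, Pzp, Azgp1, Acsm3, Odc1, Kap, Cyp2d12 and Ces1g. They were taken by name from a table of log2 expression, and the brightest probe set with a single gene symbol stood for each gene. All 9 passed the filter on dim probe sets, out of 13967 genes tested. The genes were chosen by their KO minus WT difference and their low values at ZT20 on these same arrays, so what they do in those comparisons is given as a description. Where such a comparison was fitted to all genes, the calls of the 9 stand beside the share of all genes called, and nothing is read from them.

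The study set kidneys of mice deficient in Clock, labelled clock(-/-) and called KO here, against kidneys of wild-type (WT) mice. Clock, together with Arntl, activates the genes of the circadian oscillator, the KO line lacks it in the whole body, and its colony was started from heterozygous breeding pairs. Mice of both genotypes lived for 2 weeks under 12 h of light and 12 h of dark, then spent 30 h in constant darkness, and kidneys were collected every 4 h at 6 circadian times (ZT, zeitgeber time, where lights came on at ZT0 and went off at ZT12). Each array, an Affymetrix whole-transcript array, held RNA pooled from 2 or 3 mice, with 11 KO and 11 WT arrays, 2 pools per genotype and time except 1 KO pool at ZT16 and 1 WT pool at ZT8. The labels give the left kidney as the tissue and name neither the age nor the sex of the mice, and single mice cannot be resolved. Nothing in them says that pools came from separate litters or days, so errors measure the spread between these pools.

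In mouse kidney, testosterone acts mainly on cells of the proximal tubule, and many transcripts of these cells are more abundant in males than in females. Slco1a1 and Cyp7b1 are also male-biased in mouse liver, where the pattern of growth hormone secretion governs them. Steroid hormone receptors such as that of glucocorticoids bind elements built from copies of the letters AGAACA, while Clock with its partner binds E-boxes such as CACGTG.

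Promoter windows of 300 bases, from 250 before to 50 after the annotated start, were matched for 7 of the 9 genes in RefSeq (build GRCm38.p6). Those of Pzp and Azgp1 are shown because they are the 2 that hold the letters AGAACA, and that of Slco1a1, which holds neither motif searched, because its level differed most between genotypes. The windows are chr6:128526671-128526970 on the minus strand for Pzp, chr5:137981271-137981570 on the plus strand for Azgp1 and chr6:141946913-141947212 on the minus strand for Slco1a1. They read 5′ to 3′, with capitals at AGAACA or its reverse complement TGTTCT.
Pzp: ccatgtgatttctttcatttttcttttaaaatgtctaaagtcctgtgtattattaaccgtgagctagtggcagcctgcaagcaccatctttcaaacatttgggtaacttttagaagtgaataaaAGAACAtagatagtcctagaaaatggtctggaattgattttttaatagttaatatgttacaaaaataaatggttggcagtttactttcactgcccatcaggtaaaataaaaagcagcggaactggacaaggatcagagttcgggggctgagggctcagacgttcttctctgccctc
Azgp1: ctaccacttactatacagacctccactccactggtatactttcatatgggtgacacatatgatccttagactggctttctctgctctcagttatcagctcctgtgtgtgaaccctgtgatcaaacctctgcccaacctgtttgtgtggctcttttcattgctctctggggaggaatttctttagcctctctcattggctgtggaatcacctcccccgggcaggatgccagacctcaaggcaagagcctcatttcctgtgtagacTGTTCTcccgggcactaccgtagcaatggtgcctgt
Slco1a1: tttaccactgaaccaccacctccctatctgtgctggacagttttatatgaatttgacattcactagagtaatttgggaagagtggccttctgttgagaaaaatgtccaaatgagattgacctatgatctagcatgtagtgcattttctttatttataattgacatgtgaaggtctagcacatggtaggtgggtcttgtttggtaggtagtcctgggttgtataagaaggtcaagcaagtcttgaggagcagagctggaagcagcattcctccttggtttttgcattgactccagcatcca

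In Pzp the letters AGAACA began at -126 from the start, and in Azgp1 the reverse complement began 14 bases after it. AGAACA, counted on both strands, was present in 19.0% of all 32851 promoter windows of this length. The E-box CACGTG, which reads the same on both strands, was in 0 of the 7 and in 7.15% of all windows. Of the 9 genes, Slco1a1, Pzp and Kap lie on chromosome 6, and Azgp1 lies on chromosome 5, as Clock does.

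Array medians lay between 5.88 and 6.01 log2, and any pair of arrays correlated at 0.98 to 0.994 over all probe sets. The probe set of Clock averaged 8.95 ± 0.11 in KO and 8.86 ± 0.24 in WT (SD, n = 11 each). It sums probes along the transcript, so it does not check the genotype labels. The 2 KO arrays at ZT20 stood apart from the other KO arrays, and 3 further arrays lay between the genotypes for some genes, such as Ugt2b38. Ugt2b38, a male-biased glucuronosyltransferase, read 10.62 and 10.90 log2 on pool 2 of KO at ZT8 and ZT12, against 6.50 to 8.20 on the other 9 KO arrays. On pool 2 of WT at ZT4 it read 10.51, against 11.71 to 12.36 on the other 10 WT arrays. Not every gene placed them there. Cyp7b1 read 10.79 and 10.86 on those KO arrays and 11.06 on that WT array, within the range of the other arrays of each genotype. For the 9 genes, the genotype mean, the ZT20 contrasts, the rhythm in KO and the co-variation are given with and without these 3 arrays, and those that do not need the KO ZT20 pools also without the pools. The 3 arrays were picked after the data were seen, for lying between the genotypes. Larger genotype differences or more calls without them therefore follow in part from that choice.

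Proximal tubule markers were bright on every array, with list means of 11.88 to 11.99 log2 in KO and 11.81 to 11.88 in WT. Of 11 liver genes measured, 8 passed the filter. Cyp2c29, which did not, lay between 3.20 and 3.66 log2 in KO and between 3.07 and 3.53 in WT, while the transthyretin gene Ttr read 10.75 to 11.38 in KO and 10.22 to 11.01 in WT. In limma 4 of the 8 were called for the genotype mean: Fgb (0.90 ± 0.11 log2, adjusted p = 2.73e-05), Apoc3 (0.56 ± 0.09, adjusted p = 0.000355) and Ttr (0.41 ± 0.07, adjusted p = 0.000624) were higher in KO, and Alb (-0.97 ± 0.13, adjusted p = 5.16e-05), which lies on chromosome 5 with Clock, was lower. Of all genes, 9.14% were called for the genotype mean, 5.23% higher and 3.9% lower. The part of liver transcripts in the levels of the 9 genes was not tested. None of 6 adrenal markers passed the filter. Of the sex chromosome genes, Xist was dim on all 22 arrays, at 3.18 to 3.84 log2 in KO and 3.40 to 3.80 in WT. The Y-linked genes Kdm5d, Eif2s3y and Uty were measured on every array, with Eif2s3y at 8.65 to 9.12 log2 in KO and 8.22 to 9.38 in WT. In limma 0 of the 3 were called, with 1, Kdm5d, at an unadjusted p under 0.05. Since whole tissue was measured, fewer cells of a type and less RNA per cell cannot be told apart.

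Of the 9 genes, 5 shared one pattern: a level in KO that was lowest at ZT20 and close to or below WT on most other arrays. These were Slco1a1, Cyp7b1, Pzp, Azgp1 and Ces1g, and all but Ces1g were also low in the first KO pool at ZT0. Acsm3 and Odc1 were lower in KO over the whole day with smaller departures at ZT20, Cyp2d12 varied widely over overlapping ranges in both genotypes, and Kap was flat.

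**Figure D1:**
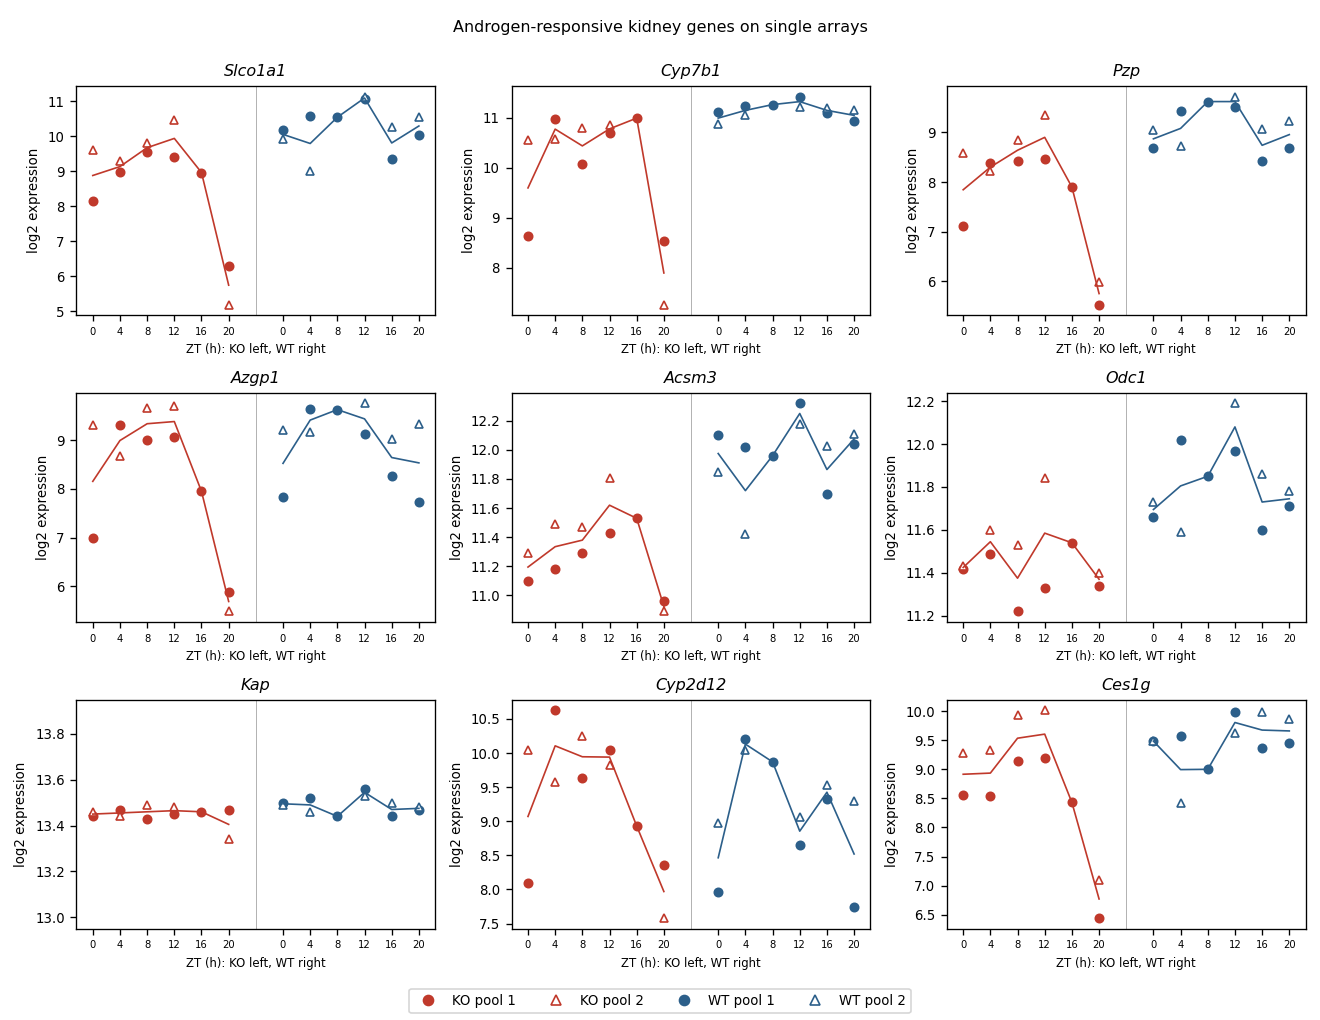
Log2 expression of the 9 genes on single arrays against circadian time (ZT, h), with KO on the left and WT on the right of each panel; circles are pool 1, triangles pool 2, and lines join the means of each time. Both KO arrays at ZT20 lie below all 20 other arrays for Slco1a1, Cyp7b1, Pzp, Azgp1, Acsm3 and Ces1g, while Kap stays between 13.34 and 13.56 log2.

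Slco1a1 encodes an organic anion transporter of the tubule brush border. On the 11 KO arrays it ran between 5.18 and 10.47 log2 with a median of 9.29, against 9.01 to 11.13 with a median of 10.25 in WT. At ZT20 the KO pools read 6.30 and 5.18, against 10.04 and 10.54 in WT. The genotypes overlapped, with 5 of 11 KO arrays below every WT array, and the lowest WT reading, 9.01, came from pool 2 at ZT4. At ZT0 the first KO pool read 8.15 and the second 9.60, against 10.18 and 9.92 in WT. Averaged over the fitted cycle, Slco1a1 was 3.09-fold lower in KO (-1.63 ± 0.35 log2, standard error of the fit).

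Cyp7b1 encodes an enzyme that hydroxylates oxysterols and steroids. It was the steadiest of the 5 in WT, between 10.87 and 11.42 log2, and lay between 7.26 and 10.99 with a median of 10.57 in KO, against a median of 11.15 in WT. The KO pools read 8.53 and 7.26 at ZT20, against 10.94 and 11.15 in WT. The first KO pool at ZT0, at 8.63, was nearly as low as the first ZT20 pool, whereas the second read 10.56. Of the 11 KO arrays, 9 were below every WT array, and the 8 KO arrays other than these 3 low pools ran between 10.08 and 10.99. The mean difference was -1.20 ± 0.27 log2.

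Pzp encodes pregnancy zone protein, a secreted protease inhibitor related to the macroglobulins. It lay between 5.53 and 9.34 log2 in KO, with a median of 8.38, and between 8.42 and 9.72 in WT, with a median of 9.06. The ZT20 pools read 5.53 and 5.98 in KO, against 8.68 and 9.23 in WT. The first KO pool at ZT0 was again the lowest of the others, at 7.11, and 6 of 11 KO arrays were below every WT array. The mean difference was -1.30 ± 0.24 log2.

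Azgp1 encodes a secreted zinc-binding glycoprotein. In KO it read 5.89 and 5.48 log2 at ZT20 and 6.99 in the first pool at ZT0, while the 8 other KO arrays ran between 7.95 and 9.71 with a median of 9.19. In WT it ran between 7.74 and 9.76 with a median of 9.18, and its 2 lowest arrays were the first pools at ZT20 (7.74) and ZT0 (7.83). Outside the 3 low pools the genotypes therefore overlapped almost fully. The mean difference over all arrays was -0.84 ± 0.30 log2.

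Ces1g, a carboxylesterase that hydrolyses lipids and drugs, read 6.44 and 7.10 log2 in KO at ZT20, against 9.45 and 9.87 in WT. The other 9 KO arrays ran between 8.43 and 10.02, close to the WT range of 8.42 to 9.99. Here the first KO pool at ZT0, at 8.55, did not stand out, since 2 other KO arrays read 8.54 and 8.43. The mean difference was -0.78 ± 0.23 log2. Ces1 and Cyp2d genes have close relatives, so a probe set may pick up several of them.

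Acsm3, an acyl-CoA synthetase of medium-chain fatty acids, was lower in KO at all 6 times, by -0.33 to -1.15 log2. It lay between 10.89 and 11.81 log2 with a median of 11.29 in KO, against 11.42 to 12.32 with a median of 12.03 in WT. The overlap came from the arrays between the genotypes: 9 of 11 WT arrays were above every KO array, the lowest WT array was pool 2 at ZT4 (11.42) and the highest KO array pool 2 at ZT12 (11.81). Its mean difference was -0.66 ± 0.09 log2, or 1.58-fold.

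Odc1 encodes ornithine decarboxylase, the rate-limiting enzyme of polyamine synthesis, and is a classic androgen target of mouse kidney. It lay between 11.22 and 11.84 log2 in KO and between 11.59 and 12.19 in WT, with medians of 11.43 and 11.78, and 9 of 11 KO arrays were below every WT array. The ZT20 pools, at 11.34 and 11.40 in KO, were not the lowest of their genotype. A second, dimmer probe set differed by -0.36 between the plain means of the genotypes, against -0.35 for the first. In the fit the mean difference was -0.36 ± 0.07 log2. Of the 6 polyamine genes tested, Odc1 included, Odc1 alone was called in limma (all genes 9.14%), with 2 at an unadjusted p under 0.05.

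Cyp2d12, a cytochrome P450, ran between 7.58 and 10.63 log2 in KO and between 7.74 and 10.21 in WT, with medians of 9.64 and 9.30. It read 8.36 and 7.58 in KO at ZT20, against 7.74 and 9.30 in WT, and 8.09 in the first KO pool at ZT0, against 7.96 in the first WT pool. Low arrays thus occurred at ZT20 and ZT0 in both genotypes. The mean difference was 0.10 ± 0.27 log2. Kap, the kidney androgen-regulated protein, is among the brightest transcripts of the table, whose maximum is 14.11 log2. It read 13.34 to 13.49 in KO and 13.44 to 13.56 in WT, a mean difference of -0.04 ± 0.03, near the top of the scale.

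Counted with limma's adjusted p under 0.05 (Benjamini-Hochberg over all genes), 6 of the 9 genes were called for the genotype mean, all lower in KO: Slco1a1, Cyp7b1, Pzp, Acsm3, Odc1 and Ces1g. Of all genes, 9.14% were called, 3.9% lower and 5.23% higher. The median difference of the 9 was -0.78 log2, against 0.00 over all genes. The genes were chosen with this contrast known, so nothing is read from the count, nor from those at ZT20 and for rhythm in KO. In 22 fits that each left out 1 array, Slco1a1, Cyp7b1, Pzp, Acsm3 and Odc1 were called every time, and Ces1g in 11. In 0 of the 9 did every KO array lie below every WT array, a pattern that 0.0215% of genes showed, namely Gltp, Gusb and Slc46a3, which are named here after their values were seen.

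At ZT20 the KO pools departed from the mean of the other KO times by -3.58 ± 0.42 log2 for Slco1a1, an 11.9-fold lower level. The departure was -3.08 ± 0.52 for Azgp1, -2.62 ± 0.36 for Cyp7b1, -2.56 ± 0.32 for Pzp and -2.31 ± 0.33 for Ces1g. These 5 were called, as were 0.931% of all genes, and since low ZT20 values chose the genes the count says nothing about them. Without the 3 arrays between the genotypes 4 were called (all genes 0.544%), and Azgp1, at -2.95 ± 0.58, was not. Cyp2d12 departed by -1.63 ± 0.45, Acsm3 by -0.49 ± 0.14, Odc1 by -0.12 ± 0.13 and Kap by -0.06 ± 0.06, and these 4 were not called. The same departure in WT was 0.04 ± 0.42 for Slco1a1, -0.60 ± 0.52 for Azgp1, -0.13 ± 0.36 for Cyp7b1, -0.23 ± 0.32 for Pzp and 0.27 ± 0.33 for Ces1g. None of the 9 was called in WT, 0 had an unadjusted p under 0.05, and 0.0859% of all genes were called. These errors come from a spread shared by both genotypes, so scatter among KO pools limits the WT calls too.

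Set directly against WT at ZT20, KO was lower by -4.55 ± 0.53 log2 for Slco1a1, -3.20 ± 0.41 for Pzp, -3.15 ± 0.46 for Cyp7b1, -2.89 ± 0.41 for Ces1g, -2.85 ± 0.65 for Azgp1 and -1.15 ± 0.18 for Acsm3. Those 6 were called, as were 1.75% of all genes. In the 22 fits that left out 1 array the call held in 22 for Slco1a1 and Pzp, in 20 for Cyp7b1 and Acsm3 and in 21 for Ces1g, but in 11 for Azgp1, whose difference lay between -3.64 and -2.05. Without the 3 arrays between the genotypes 5 were called (all genes 1.83%), again without Azgp1 (-2.85 ± 0.71). At the other 5 times 0 of the 9 were called in limma. The share of all genes called was 0.0286% at ZT0, 0.00716% at ZT4, 0.0286% at ZT8, 0.122% at ZT12 and 0.0143% at ZT16. Among the 9, 4 had an unadjusted p under 0.05 at ZT0, 0 at ZT4, 2 at ZT8, 3 at ZT12 and 1 at ZT16. Outside ZT20 the differences ran between -0.67 and -1.18 for Slco1a1, between -0.72 and -1.02 for Pzp and between -0.19 and -0.49 for Odc1, lower in KO each time. For Cyp7b1 they ran between -0.15 and -1.40, and for Azgp1 between -0.05 and -0.69, also lower each time. For Ces1g they ran between -1.24 and 0.54, lower in KO at 4 of these 5 times and higher at 1.

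The KO departure at ZT20 minus that of WT was -3.61 ± 0.59 log2 for Slco1a1, -2.58 ± 0.46 for Ces1g, -2.49 ± 0.52 for Cyp7b1, -2.48 ± 0.73 for Azgp1 and -2.33 ± 0.45 for Pzp. By limma's adjusted p, 0 of the 9 were called for this difference between genotypes, although 6 had an unadjusted p under 0.05, and 0.0286% of all genes were called. Those 4 genes, named after their values were seen, were Cyp2j13 (-2.21 ± 0.33), a male-biased cytochrome P450 of mouse kidney, Mogat1 (-1.29 ± 0.18), Nat8f2 (-1.05 ± 0.15) and Sectm1b (-0.94 ± 0.14), with limma adjusted p of 0.0244 or 0.0255. Their calls held in 10 of the 22 fits that left out 1 array for Cyp2j13, in 13 for Mogat1 and Sectm1b and in 14 for Nat8f2. Without the 3 arrays between the genotypes 1 of the 9, Slco1a1 (-3.33 ± 0.51), was called, as were 0.0859% of all genes.

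A 24 h wave fitted to each genotype gave amplitudes, the height of the fitted peak above the mean, of 1.65 ± 0.30 log2 for Azgp1, 1.60 ± 0.35 for Slco1a1, 1.26 ± 0.24 for Pzp, 1.15 ± 0.23 for Ces1g and 1.14 ± 0.27 for Cyp7b1 in KO. Fitted peaks lay between ZT 7.93 and 8.67. These 5 were called rhythmic in KO, as were 2.46% of all genes. In WT the amplitudes of the same genes were 0.66 ± 0.30, 0.39 ± 0.35, 0.41 ± 0.24, 0.38 ± 0.23 and 0.16 ± 0.27. None of the 9 was called in WT (0 had an unadjusted p under 0.05), where 6.48% of all genes were. Both genotypes share a single spread per gene in this fit, so scatter among KO arrays widens the WT errors. Cyp7b1, with an SD of 1.26 in KO and 0.15 in WT, had an amplitude error of 0.27 in both. The lack of WT calls is therefore no measure of how flat these genes were in WT. Without the KO ZT20 pools 0 of the 9 were called in KO, 2 had an unadjusted p under 0.05, and 0.0859% of all genes were called. That fit has no KO array at ZT20, so the loss does not show that the calls came from those 2 arrays alone. Without the 3 arrays between the genotypes 0 of the 9 were called in KO either, 6 had an unadjusted p under 0.05, and 0.415% of all genes were called. The call of Cyp7b1 held in 3 of the 22 fits that left out 1 array.

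Across single arrays the 9 genes moved together to different degrees. Over 22 arrays the 36 pairs had a median Pearson r of 0.71, between -0.01 for Acsm3 with Cyp2d12 and 0.96 for Slco1a1 with Pzp. With values centred per genotype the median was 0.64, and 10 of 36 pairs were above 0.8. Within the 11 KO arrays it was 0.77, and within the 11 WT arrays 0.54. Without the 3 arrays between the genotypes it was 0.72 over 19 arrays, 0.74 over 9 KO arrays and 0.56 over 10 WT arrays. The points share pools, labelling and one normalization, and the genes were listed for moving together, so these values are a description.

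Centred per genotype, Pzp correlated at 0.95 with Azgp1 and at 0.94 with Slco1a1, while Slco1a1 with Azgp1 gave 0.87 and Slco1a1 with Ces1g 0.89. Acsm3 and Odc1 went together at 0.67, and Cyp2d12 followed Azgp1 at 0.86 while it was nearly unrelated to Acsm3 at 0.16. Leaving out the KO ZT20 pools and ZT0 pool 1 of both genotypes lowered the median to 0.50 over 18 arrays. Slco1a1 with Pzp still gave 0.89 and Slco1a1 with Acsm3 0.85, but Slco1a1 with Azgp1 gave 0.55. Cyp7b1 gave 0.23 with Slco1a1 and 0.02 with Ces1g, where all 22 arrays gave 0.86 and 0.72.

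**Figure D2:**
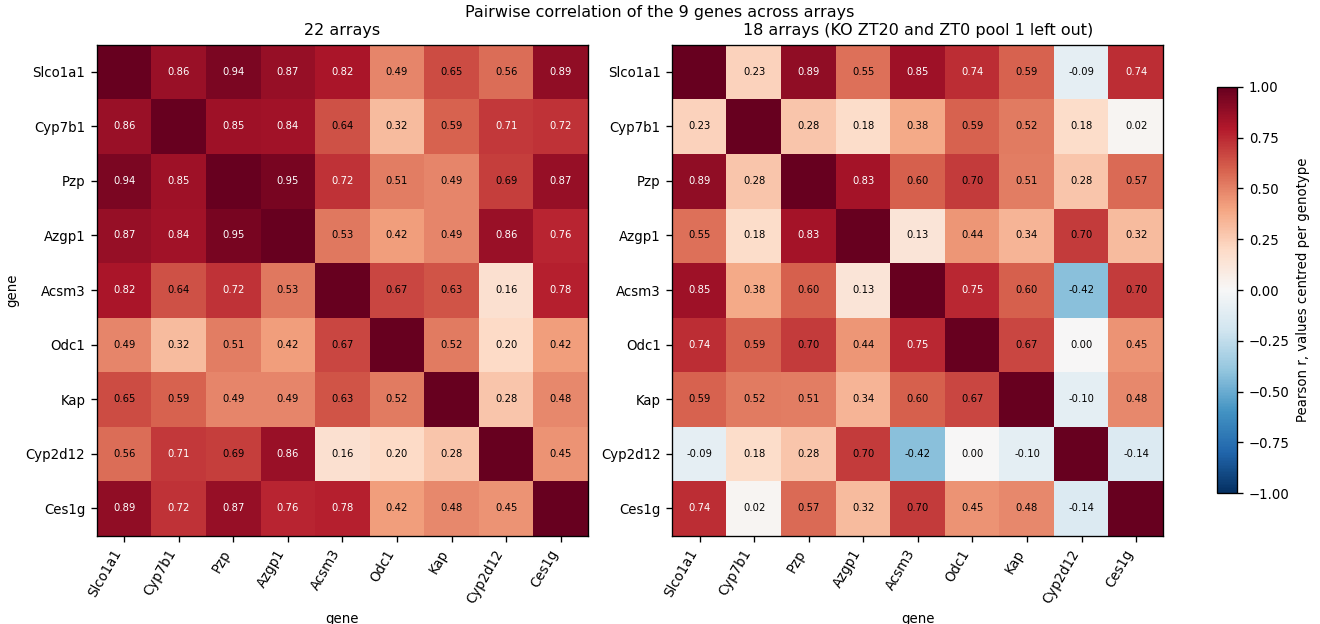
Pearson r between each pair of the 9 genes across arrays, on values centred per genotype; left, all 22 arrays, and right, the 18 arrays left without the KO ZT20 pools and ZT0 pool 1 of both genotypes. The block of high values on the left, such as 0.86 for Slco1a1 with Cyp7b1, thins on the right, where that pair has 0.23 and Slco1a1 with Pzp keeps 0.89.

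In WT other pairs were highest as long as all 11 arrays were kept. Slco1a1 with Acsm3 (0.92), Pzp with Odc1 (0.88) and Slco1a1 with Odc1 (0.87) were highest over the 11 WT arrays, and Acsm3 with Cyp2d12 was lowest (-0.45). Pool 2 at ZT4 held the lowest WT reading of both Slco1a1 and Acsm3, and without it these pairs gave 0.87, 0.87, 0.87 and -0.28. Slco1a1 with Pzp (0.89) and Pzp with Azgp1 (0.88) were then highest, pairs that gave 0.96 and 0.98 in KO. In KO all 36 pairs were positive, with Pzp and Azgp1 at 0.98. The range of Cyp7b1 was 3.74 log2 in KO and 0.55 in WT.

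The mean of the 9 genes, each centred per genotype and scaled to its SD, placed the KO ZT20 pools lowest of all arrays, at -1.56 and -2.19, and the first KO pool at ZT0 next, at -0.77. The other 8 KO arrays lay between 0.09 and 1.39. WT arrays lay between -0.65 for pool 2 at ZT4 and 0.70 for pool 2 at ZT12, and WT ZT0 pool 1 at -0.35 was not extreme. Both KO ZT20 arrays were below the other 20 arrays for 6 of the 9 genes, a pattern of 2.65% of all genes, and for 14 of 19 other male-biased genes listed. The first KO pool at ZT0 was below the 8 other KO arrays outside ZT20 for 6 of the 9 (all genes 12.4%) and for 11 of the 19. It was lower than their median by -2.20 log2 for Azgp1, -2.11 for Cyp7b1, -1.85 for Cyp2d12, -1.33 for Pzp and -1.32 for Slco1a1. The first WT pool at ZT0 was the lowest WT array for 0 of the 9 (all genes 8.17%), here with the WT ZT20 pools kept in the ranking. It was among the 2 lowest for Azgp1 and Cyp2d12, by -1.37 and -1.35 log2 from the median of the other WT arrays. For the other members this distance ran between -0.46 and 0.08. Of the 19 other male-biased genes, Cyp4a12a and Cyp4a12b were lowest in WT on that pool.

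The 8 genes outside the list that were most like this mean, by Pearson r over 22 arrays centred per genotype, were Ldhd (0.98), Cyp2e1 and Degs2 (0.96 each), Ugt8a, Cyp2j13, Chst11 and Ces1f (0.95 each) and Cyp4b1 (0.94). Without the KO ZT20 pools they gave 0.88 to 0.96. Ldhd, a mitochondrial lactate dehydrogenase, read 9.86 and 9.68 log2 in the KO ZT20 pools, 10.08 in the first KO pool at ZT0, and 10.65 to 11.10 on the other KO arrays, against at most 11.47 in WT. The 4 most opposed genes were Scarna17 (-0.90), St3gal2 (-0.89), the elastic fibre gene Eln (-0.88) and the basement membrane collagen Col4a1 (-0.87). Col4a1 read 9.38 and 9.72 log2 in the KO ZT20 pools and 9.39 in the first KO pool at ZT0, against 8.25 to 8.97 in WT.

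Of the 19 other male-biased or androgen-responsive genes listed, all tested, 13 were lower in KO over the cycle and 0 higher, with a median of -0.37 log2, where 3.9% of all genes were lower and the median was 0.00. Without the 3 arrays between the genotypes 15 were lower. Of all genes 10.2% were then called, with 634 genes lower against 545 over all arrays. The largest difference was that of Ugt2b38 (-3.68 ± 0.32, limma adjusted p = 6.49e-07), followed by the fatty acid hydroxylases Cyp4a12a (-1.93 ± 0.33, adjusted p = 0.000669) and Cyp4a12b (-1.67 ± 0.25, adjusted p = 0.000187) and by Cyp2j13 (-0.84 ± 0.19, adjusted p = 0.00821). Ugt2b38 lies on chromosome 5, as Clock does, so sequence carried along with the targeted locus and loss of Clock cannot be told apart for it. Without the KO ZT20 pools 10 of the 19 were called (all genes 4.58%), all lower, with a median of -0.31. Leaving out the 3 arrays as well gave 12 (all genes 6.09%). Without the KO ZT20 pools Cyp4a12a remained at -1.56 ± 0.34 (adjusted p = 0.0111). Like the 9, this list was written with earlier results known.

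Of the 6 female-biased kidney genes tested, 5 were higher in KO (all genes 5.23%) and 1 was lower (all genes 3.9%). Without the 3 arrays between the genotypes 5 were higher too, and 10.2% of all genes were called, with 797 genes higher. The amino acid transporter Slc7a12 differed by 2.38 ± 0.30 log2 (limma adjusted p = 2.71e-05), with 10.32 to 10.98 on KO arrays and 6.93 to 10.49 on WT arrays. Its highest WT reading came from pool 2 at ZT4, and the other WT arrays reached 9.08. The fatty acid hydroxylase Cyp4a14 differed by 1.32 ± 0.25 (adjusted p = 0.00162), the oxidase Hao2 by 1.05 ± 0.08 (adjusted p = 8.28e-08), and the efflux pumps Abcc3 by 0.67 ± 0.08 (adjusted p = 2.17e-05) and Abcc4 by 0.39 ± 0.08 (adjusted p = 0.00275). The organic anion transporter Slc22a7 was lower, at -0.49 ± 0.10 (adjusted p = 0.00278). At ZT20, 1 of the 6, Abcc3, was called for the KO departure (0.74 ± 0.10, adjusted p = 0.00251), as were 0.931% of all genes. The list median was 0.10 log2. The genotype median of the list was 0.80 without the KO ZT20 pools and 0.86 with them.

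Genes of the hormone pathways themselves were called for the genotype mean in small numbers, where 9.14% of all genes were called. Of 6 androgen pathway genes tested, the steroid receptor chaperone Fkbp5 was lower in KO (-0.49 ± 0.08, limma adjusted p = 0.000704) and 5 were not called, among them the estrogen receptor Esr1 (0.06 ± 0.04) and the steroid dehydrogenase Hsd17b11 (-0.19 ± 0.10), which did depart at ZT20 in KO (-0.76 ± 0.14, adjusted p = 0.015). Of 7 growth hormone pathway genes, Igf1 was higher (0.30 ± 0.08, adjusted p = 0.02) and the receptor Ghr lower (-0.13 ± 0.03, adjusted p = 0.0163). Neither was called without the KO ZT20 pools, at 0.27 ± 0.09 and -0.11 ± 0.04.

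What remained of the genotype difference depended on the gene. Without the KO ZT20 pools Slco1a1 differed by -1.01 ± 0.26 log2, Pzp by -0.91 ± 0.19, Cyp7b1 by -0.75 ± 0.21, Acsm3 by -0.57 ± 0.10 and Odc1 by -0.33 ± 0.08. These 5 were called, against 4.58% of all genes. Azgp1 and Ces1g, both at -0.42, and Cyp2d12 and Kap, at 0.25 and -0.03, were not. In shares of the difference over all arrays, 91.7% was kept for Odc1, 86.4% for Acsm3, 70.0% for Pzp, 62.0% for Slco1a1 and 50.0% for Azgp1.

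Leaving out the first KO pool at ZT0 as well brought Cyp7b1 to -0.40 ± 0.10 log2 and Azgp1 to -0.13 ± 0.27. Slco1a1 then differed by -0.85 ± 0.27, Pzp by -0.73 ± 0.18, Acsm3 by -0.54 ± 0.10, Odc1 by -0.31 ± 0.09 and Ces1g by -0.39 ± 0.22. Of the 9, the 3 genes Cyp7b1, Pzp and Acsm3 were called, against 2.93% of all genes. The shares kept were 86.1% for Odc1 and 81.8% for Acsm3, against 33.3% for Cyp7b1 and 15.5% for Azgp1. With the first WT pool at ZT0 also out, Pzp (-0.75 ± 0.19) and Acsm3 (-0.51 ± 0.10) were called, against 2.43% of all genes. All of these fits gave 8 of 9 genes a negative difference, with Cyp2d12 the exception at 0.53 ± 0.29 and 0.42 ± 0.27.

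**Figure D3:**
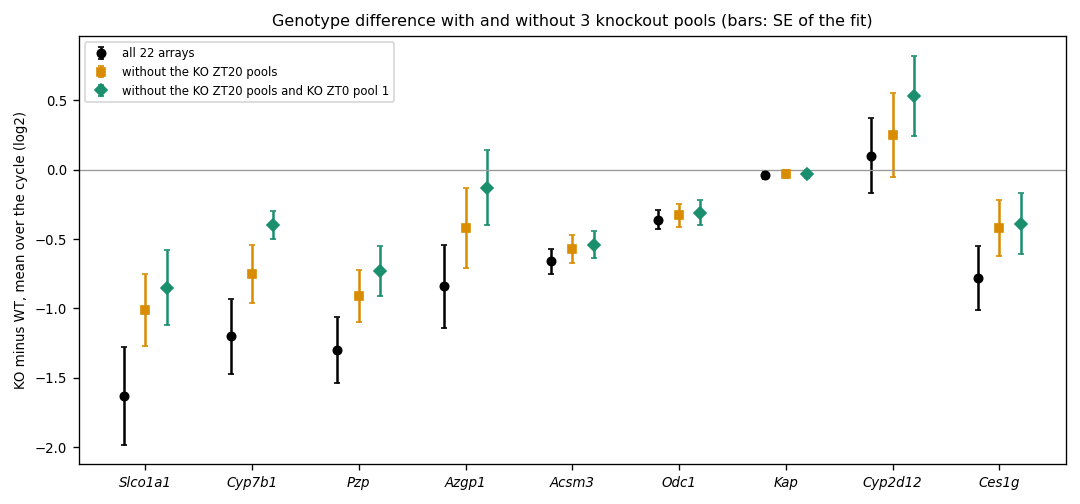
KO minus WT difference of the cycle mean (log2, ± SE of the fit) for each of the 9 genes with all 22 arrays, without the KO ZT20 pools, and without those and the first KO pool at ZT0. Acsm3 and Odc1 hardly move, while Cyp7b1 goes to -0.40 and Azgp1 to -0.13.

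Leaving out the 3 arrays between the genotypes widened the difference for most of the 9 genes but not for Cyp7b1. Arrays picked for lying between the genotypes narrow the difference, so wider values without them follow in part from that choice. Nothing is read from the wider values or from the calls. Without them the differences were -1.89 ± 0.37 log2 for Slco1a1, -1.48 ± 0.25 for Pzp, -1.03 ± 0.24 for Ces1g, -0.96 ± 0.35 for Azgp1, -0.76 ± 0.08 for Acsm3 and -0.45 ± 0.06 for Odc1, and -1.19 ± 0.33 for Cyp7b1. Then 6 of the 9 were called, as were 10.2% of all genes. Leaving out the KO ZT20 pools together with these 3 gave -1.31 ± 0.22 for Slco1a1, -1.11 ± 0.18 for Pzp and -0.68 ± 0.16 for Ces1g. Then 5 of the 9 were called, against 6.09% of all genes, with Ces1g among them and Cyp7b1, at -0.77 ± 0.25, not. Split by pool number, 4 of 9 were called among pool 1 arrays (all genes 4.05%). Among pool 2 arrays 0 were called in limma, 4 reached an unadjusted p under 0.05, and 0.00716% of all genes, the single gene Ces1d (-0.70 ± 0.05), were called. All 3 arrays between the genotypes are pool 2 arrays, and WT at ZT8 and KO at ZT16 have no pool 2. The near absence of pool 2 calls is therefore not a separate check, and nothing is read from it. The differences of Slco1a1 were -1.74 ± 0.29 in pool 1 and -1.52 ± 0.68 in pool 2, and those of Cyp7b1 were -1.19 ± 0.32 and -1.34 ± 0.43.

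On the 3 KO arrays with the lowest mean of the 9 genes, mean proliferation and stromal markers exceeded those of the other 8 KO arrays. Against WT, KO ZT20 pool 1 lay within the range for both. Odc1 was not at its lowest on the 3 arrays, nor was Ces1g in the first KO pool at ZT0, and Kap was flat. The mean of 5 proliferation markers was 5.71 and 7.08 log2 in the KO ZT20 pools and 6.50 in the first KO pool at ZT0, while the other 8 KO arrays lay between 5.42 and 5.61 and WT arrays between 5.43 and 6.43. All 5 markers, among them Mki67, Top2a and Ccna2, were above the other 8 KO arrays in KO ZT20 pool 2 and in KO ZT0 pool 1, and 3 of 5 were in KO ZT20 pool 1. Mki67 read 6.10 and 7.67 in the KO ZT20 pools and 7.20 in KO ZT0 pool 1, against 5.52 to 6.84 in WT. The mean of 7 stromal markers was 8.74 and 9.18 in the KO ZT20 pools and 8.96 in KO ZT0 pool 1. It lay between 8.17 and 8.57 on the other 8 KO arrays and between 8.11 and 8.83 in WT.

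**Figure D4:**
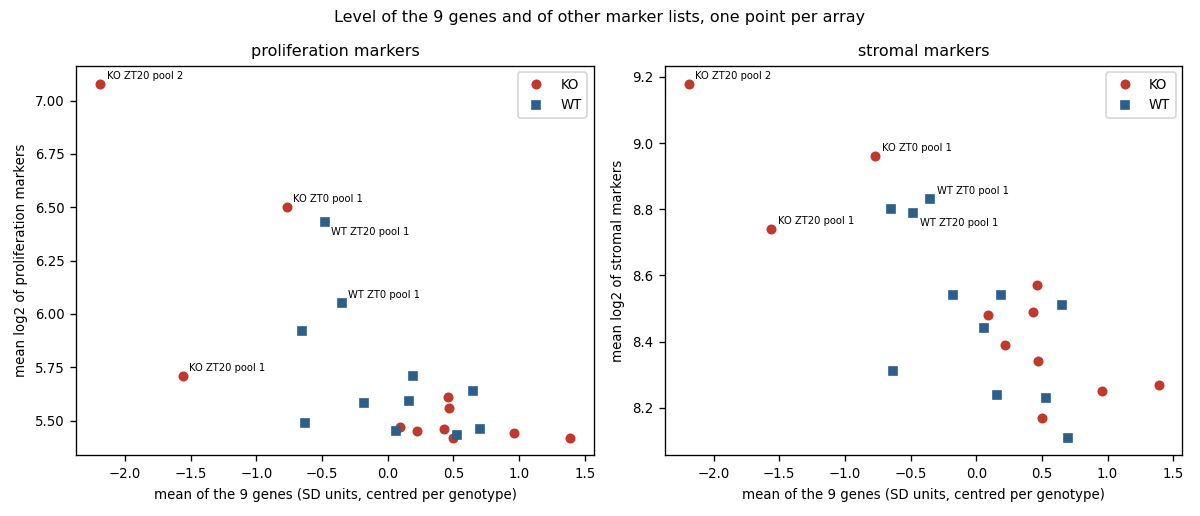
Mean log2 level of proliferation markers (left) and stromal markers (right) against the mean of the 9 genes (SD units, centred per genotype), one point per array, with KO as circles and WT as squares. The KO ZT20 pools and the first KO pool at ZT0 have the lowest means of the 9 genes, and KO ZT20 pool 2 has the highest level of both marker lists, 7.08 and 9.18.

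Across the 22 arrays, centred per genotype, the mean of the 9 genes had a Pearson r of -0.75 with the proliferation mean and of -0.80 with the stromal mean, and of -0.68 and -0.72 without the KO ZT20 pools. No marker of either list was called for the genotype mean in limma, and none had an unadjusted p under 0.05. For the KO departure at ZT20 none was called, but 5 of 5 proliferation and 4 of 7 stromal markers had an unadjusted p under 0.05. The share of all genes at that unadjusted p is not given here, so nothing is read from these counts. WT ZT20 pool 1 also read high for proliferation markers, at 6.43, with Slco1a1 at 10.04 and Azgp1 at 7.74. The part of these markers in the levels of the 9 genes was not tested. Of the other marker lists, the distal nephron mean had an r of -0.75 with the mean of the 9 genes, with and without the KO ZT20 pools, and that of endothelium and podocytes -0.58, or -0.50 without them. For the genotype mean, 4 of 8 distal nephron markers were called (3 higher in KO, among them Pvalb at 0.31 ± 0.06, and 1 lower), 4 of 10 proximal tubule markers (3 higher, among them Slc5a12 at 0.24 ± 0.04, and 1 lower) and 2 of 5 endothelial and podocyte markers (both higher, Plvap at 0.33 ± 0.04 and Pecam1 at 0.30 ± 0.06). The endothelial and podocyte mean was 9.29 and 9.34 log2 in the KO ZT20 pools and 9.37 in KO ZT0 pool 1, against 8.95 to 9.22 in WT. For the genotype mean 9.14% of all genes were called, 5.23% higher and 3.9% lower. The part of these other marker lists in the levels of the 9 genes was not tested either. The distal nephron mean was 10.52 and 10.47 in the KO ZT20 pools, against 10.34 to 10.43 in the 8 KO arrays outside the 3 low pools and 10.23 to 10.46 in WT, and the proximal tubule mean, at 11.91 and 11.89, lay within the range of the other KO arrays.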

How the data were processed

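Whole-kidney RNA of 11 KO and 11 WT pools was measured on single-colour arrays. The authors deposited log2 values for each probe set, which they computed with RMA, per the submitters' processing notes. This method includes a quantile normalization, which would hide a common shift of most genes, and dim probe sets are flattened. The genome build is not given in the sources used here. Arrays carry no read depth, so their number limits the precision.

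Of 35556 probe sets, 21789 have 1 gene symbol in the platform annotation, 1621 several, and 12146 are not listed there. By gene number 21698 matched RefSeq GRCm38.p6. Probe sets whose mean fell below the 30th percentile (5.21 log2) were left out and the brightest stood for its gene, leaving 13967 genes. limma 3.58.1 in R 4.3.3 was fitted to all arrays on these values. The model held either a mean, cosine and sine of 24 h per genotype or 12 group means. Groups with 1 pool borrow the spread of the other groups, and both genotypes share a single spread per gene. Adjusted p-values are Benjamini-Hochberg over all genes, and a gene was called at an adjusted p under 0.05. The fits were also run on simulated data with independent noise and the same spread on every array of a gene. That setting does not mimic the unequal spread of the genotypes, so nothing is read from it. Values after ± are standard errors unless SD is written. Counts at an unadjusted p under 0.05 are printed without the share of all genes at that p, so nothing is read from them.

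The 9 genes, the other lists and the tests were chosen with earlier results of these data known. Named genes were the 9, Clock, up to 4 genes per list with the largest genotype difference, every female-biased and sex chromosome gene measured, and the 8 most alike and 4 most opposed genes. Prlr and Ddx3y are not analysed here. Alternatives covered normalization, filters, probe sets, spread models, array weights, the pool number as a block and arrays left out. Promoter sequences are RefSeq's.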

Additional observations from a re-analysis of the deposited data

Results flagged for a closer look

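Cyp2j13, a male-biased cytochrome P450 whose level followed the mean of the 9 genes, differed between genotypes in how far ZT20 departed from the other times. The departure was -2.25 ± 0.23 log2 in KO, and the departure in KO minus that in WT was -2.21 ± 0.33 (limma adjusted p = 0.0255, 22 arrays). Both KO ZT20 pools, at 8.60 and 8.42 log2, were below all other arrays, against 10.91 and 11.35 in WT at ZT20. The call held in 10 of 22 fits that left out 1 array, where the difference lay between -2.44 and -1.99, and either KO ZT20 pool was among the arrays whose removal ended it.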

How the results depend on the processing

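For the genotype mean, 1276 genes were called, 731 higher and 545 lower. The count was 639 without the KO ZT20 pools, 434 without the ZT20 pools of both genotypes, 409 without the KO ZT20 pools and KO ZT0 pool 1, 339 with WT ZT0 pool 1 out too, 565 among pool 1 arrays, 1 among pool 2 arrays, 823 with group means in place of waves and 2351 with array weights. Subtracting array medians gave 1111 higher and 343 lower. Group means without the KO ZT20 pools gave 365. Rhythm in KO (343 genes) was called for 12 without the KO ZT20 pools, 8 without the ZT20 pools of both genotypes, 5 without the KO ZT20 pools and KO ZT0 pool 1, 58 without the 3 arrays between the genotypes, 228 without the filter and 697 with array weights. Rhythm in WT (905 genes) was called for 510 without the ZT20 pools and 595 without the 3 arrays. KO against WT at ZT20 (244) gave 154 without the filter. The KO departure at ZT20 (130) gave 196 with a trended robust spread, 231 with array weights and 76 without the 3 arrays. The difference of departures (4) gave 12 with array medians, with repeated quantile normalization, with the robust spread and without the 3 arrays, 24 with the 50th percentile filter and 21 with array weights. Leaving out 1 array at a time gave 903 to 1850 genes for the genotype mean, 77 to 477 for rhythm in KO, 602 to 954 in WT, 21 to 366 for KO against WT at ZT20, 12 to 213 for the KO departure and 0 to 42 for the difference of departures. The lowest counts for the ZT20 contrasts came without WT ZT20 pool 2 (21) and without KO ZT20 pool 2 (12 for the departure, 77 for rhythm). The difference of departures gave 0 without WT ZT16 pool 1, either WT ZT20 pool, KO ZT4 pool 1, KO ZT8 pool 2, KO ZT12 pool 2 or either KO ZT20 pool. The cause of these changes was not tested. The co-variation median of 0.71 became 0.68 with Spearman, 0.77 within KO, 0.54 within WT, 0.64 centred, 0.60 without the KO ZT20 pools and 0.72 without the 3 arrays. It was 0.50 on centred values without the KO ZT20 pools and ZT0 pool 1 of both genotypes, and 0.69 to 0.75 with 1 array out.

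Whether pool numbers shared between genotypes mark pairs cannot be settled from so few times. Same-numbered KO and WT arrays deviated together at 0.36 for ZT0, 0.39 for ZT4, 0.0035 for ZT12 and 0.18 for ZT20. All 45 pairs of groups ran between -0.41 and 0.55 with a median of 0.12. With the pool number as a replicate block, the KO departure was called for 217 genes, the difference of departures for 19 and the genotype mean for 1405. Without the block these counts were 130, 4 and 1276.

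Among values of the 9 genes, 1688 kept direction and call, 122 lost a call, 34 gained one and 10 changed sign, none of the last a called value. These were Cyp2d12 for the genotype mean (-0.14 in pool 2, and -0.03 to 0.20 with 1 array out, with negative values of -0.02 without WT ZT0 pool 1 or WT ZT12 pool 1 and -0.03 without KO ZT0 pool 2) and at ZT20 (-1.34 to 0.23 with 1 array out, positive only without WT ZT20 pool 2), Kap without KO ZT20 pool 2 (0.01 for the KO departure, range -0.12 to 0.01, and 0.02 for the difference of departures, range -0.11 to 0.02), and Odc1 for that difference (0.09 without the 3 arrays, 0.01 without WT ZT4 pool 2 or KO ZT12 pool 2, range -0.09 to 0.01). Settings without the 3 arrays or without WT ZT0 pool 1 were added after seeing the data. Kap lay near the top of the scale and Xist near the floor, where arrays resolve little.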
